A study of Homo sapiens with 6 samples.

Results

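The genes described here are 10 members of the interleukin-6 (IL-6) cytokine pathway: the ligand genes IL6, LIF, IL11 and CLCF1, the receptor genes IL6R, IL6ST, LIFR and OSMR, and the transcription factor gene STAT3 with its feedback gene SOCS3. They were taken by symbol from the 20683 genes listed in each deposited count table, and all 10 were found there. RNA came from HT-1080, an established human fibrosarcoma line, here a single line grown on dishes. Of the 6 dishes, 3 had received the IRAK4 inhibitor SLV-8472-01 for 24 h, at a concentration that the labels give as 5 mM and that could not be checked here. The other 3, the controls, had received 0.1% DMSO for 24 h, and the series calls the 3 samples of each group biological replicates. IRAK4 is a kinase that passes signals of the interleukin-1 and Toll-like receptors on to NF-kB, and the comparison asks which transcripts differ with the inhibitor.

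Cytokines of the IL-6 family signal through receptor complexes that share gp130, the product of IL6ST. IL-6 first binds its own receptor chain, encoded by IL6R, LIF binds the chain encoded by LIFR, and OSMR encodes the second chain of an oncostatin M receptor. The bound complex activates JAK kinases, which phosphorylate STAT3, and STAT3 in turn induces SOCS3, whose product binds gp130 and dampens the signal. Tumour cells and fibroblasts are known to secrete several of these ligands, and the IL6 gene is a textbook target of NF-kB. Transcripts were measured here, and neither secreted protein nor STAT3 phosphorylation was.

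Libraries were made with an amplicon panel, in which a short PCR product stands for each gene, so levels of different genes are not compared with each other. Library totals lay between 9469603 and 11909708 counts with the inhibitor and between 9162281 and 13184553 counts with DMSO, and replicates of a group differed by more than counting noise (chi-square per degree of freedom 5.17 to 36.7). Each of the 8 mesenchymal and fibrosarcoma markers was detected, with 60473 to 75108 counts of VIM, the vimentin gene, in the inhibitor libraries and 47213 to 84857 in the DMSO libraries. The 8 markers summed to 10699 to 11025 CPM with the inhibitor and 9757.5 to 11719.9 CPM with DMSO. None of the 8 was called by edgeR. Their median log2 fold change was -0.17, with VIM at 0.09 and every other marker below 0. FN1, MMP14 and MMP2 were lower without overlap, 3 of the 8, against 25.5% of all tested genes without overlap. Of 5 leukocyte markers 3 were at 0 in every library, PTPRC among them, and the summed level of the list was 0.422 to 1.26 CPM with the inhibitor and 0.109 to 0.607 CPM with DMSO. Of 5 epithelial markers 3 were also at 0 in every library, and EPCAM had 0 counts with the inhibitor and 1 with DMSO. Their summed level was 1.18 to 1.81 CPM with the inhibitor and 0.531 to 0.910 CPM with DMSO, without overlap, through CLDN4, a claudin gene, at 14, 20 and 17 counts with the inhibitor and 7, 11 and 7 with DMSO. The 3 endothelial markers summed to 0.816 to 2.27 CPM with the inhibitor and 0.759 to 1.42 CPM with DMSO. The part of such cells in the results was not tested. IRAK4 itself had 12, 18 and 9 counts in inhibitor 1 to 3 and 9, 16 and 20 in DMSO 1 to 3. The library DMSO 3 stood apart from its group, with a median absolute log2 difference of 0.317 from DMSO 1 and 0.248 from DMSO 2, against 0.155 between DMSO 1 and DMSO 2 and 0.122 to 0.130 among the inhibitor libraries. This difference went in part with the GC content of whole annotated transcripts. The GC content of the short PCR products themselves was not used here. Over 9189 genes the Spearman correlation between transcript GC content and a library's deviation from the DMSO mean was -0.485 in DMSO 3, 0.129 in DMSO 2 and 0.528 in DMSO 1. The genes are not independent replicates, and since the 3 deviations of a gene add up to 0, a trend in 1 library forces an opposite trend in the others.

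LIF was the single member called in the main edgeR test. Of the 9 members tested, 1 fell and none rose (edgeR quasi-likelihood test, Benjamini-Hochberg adjusted p under 0.05 over 11216 genes), while 3.87% of all tested genes were called, 1.95% higher and 1.92% lower. At an unadjusted edgeR p under 0.05 there were 2 members, LIF and IL6. Many genes pass that limit, since IL11, at an unadjusted edgeR p of 0.058, ranked 2369 by p among the 11216 tested genes. Counts at that limit, here and in the lists below, are therefore not read as results about the genes counted. Neither DESeq2 nor limma-voom without quality weights, which called 5.13% and 3.96% of their tested genes, called any member higher. The inhibitor and DMSO values did not overlap for 2 of the 9 members, again LIF and IL6, against 25.5% of all tested genes. The median log2 fold change was 0.12 over the 9 members and -0.00438 over all tested genes. The member that could not be tested was LIFR, which had no counts.

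LIF encodes leukemia inhibitory factor, which acts through LIFR and gp130. It had 494, 344 and 359 raw counts in inhibitor 1 to 3, against 901, 849 and 479 in DMSO 1 to 3. Scaled to library size by TMM, these were 40.4, 30.7 and 37.3 CPM (counts scaled to a common library size) in the inhibitor libraries, against 70.5, 64.6 and 53.9 CPM in the DMSO libraries. Every inhibitor value lay below every DMSO value, and DMSO 3 was the lowest of its group. LIF averaged 36.1 ± 4.96 CPM with the inhibitor and 63.0 ± 8.39 CPM with DMSO (SD, n = 3 each), and it fell to 0.573-fold, or -0.80 on the log2 scale (SE 0.147, 95% interval -1.12 to -0.49, edgeR adjusted p = 0.00723). The spread between replicates, 13.7% with the inhibitor and 13.3% with DMSO, was larger than the 5.01% and 3.67% that counting error alone would give. In bulk RNA, fewer cells making LIF RNA and less of it per cell cannot be told apart. The log2 fold change lay between -0.95 and -0.70 in the 17 alternative fits, with the call lost without inhibitor 2 (edgeR adjusted p = 0.0904, where 0.87% of genes were called) and without inhibitor 3 (adjusted p = 0.0501, 1.32% called). Over those fits the adjusted p ranged from 9.34e-07 to 0.0904.

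IL6 encodes the founding cytokine of the family. It had 70, 60 and 40 counts in inhibitor 1 to 3 and 43, 40 and 26 counts in DMSO 1 to 3. On the CPM scale these were 5.72, 5.35 and 4.16 with the inhibitor and 3.36, 3.04 and 2.93 with DMSO. The groups did not overlap, with inhibitor 3 the nearest to the DMSO libraries. IL6 averaged 5.08 ± 0.814 CPM with the inhibitor and 3.11 ± 0.226 CPM with DMSO (SD, n = 3 each). The log2 fold change was 0.71 (SE 0.215, 95% interval 0.25 to 1.17), with 3 of 3 inhibitor values above every DMSO value, and it did not pass (edgeR adjusted p = 0.0845). At 26 to 70 counts a library, counting error alone would give a spread of 13.3% in the inhibitor group and 16.6% in the DMSO group. Measured spreads were 16.0% and 7.25%. The DMSO libraries thus lay closer together than counting error alone would give, and this closeness is not read as a property of IL6. IL6 passed without DMSO 3 (edgeR adjusted p = 0.0436, where 21.9% of all genes were called), also with the replicate block in that fit (adjusted p = 0.0323, 18.2% called), and with library quality weights in limma-voom (adjusted p = 0.0107, 23.2% called). Its adjusted p ranged from 0.0107 to 0.315 over the 16 alternative fits that could include it.

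IL11 encodes an IL-6 relative that binds its own receptor chain together with gp130. It had 19.5, 19.0 and 15.4 CPM in inhibitor 1 to 3, against 16.6, 14.0 and 11.7 CPM in DMSO 1 to 3. The groups overlapped through inhibitor 3 and DMSO 1. The log2 fold change was 0.34 (SE 0.167, 95% interval -0.01 to 0.70, edgeR adjusted p = 0.275), and no fit tried called it. CLCF1 encodes a cytokine that acts through the CNTF receptor. It had 15.7, 19.9 and 16.9 CPM with the inhibitor and 19.5, 17.3 and 9.57 CPM with DMSO, and the 3 inhibitor values lay within the DMSO range except for inhibitor 2, the highest of all. Its log2 fold change was 0.16 (SE 0.215, 95% interval -0.30 to 0.62, adjusted p = 0.741), and without DMSO 3, its lowest library, it was -0.09.

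The proximal promoters of IL6 and IL11 are shown because each holds a match to a searched motif and they are the ligand genes with a sequence at hand. LIF, the gene that was called, and CLCF1 were not searched, so the windows bear on no contrast with LIF. The sequences are those of RefSeq on build GRCh38.p14, 250 bases before to 50 bases after the annotated start, and they are printed 5′ to 3′ on the strand of the gene. Capitals mark a match to a searched motif. IL6 lies on the plus strand at chr7:22726950-22727249, and IL11 on the minus strand at chr19:55370414-55370713.
IL6: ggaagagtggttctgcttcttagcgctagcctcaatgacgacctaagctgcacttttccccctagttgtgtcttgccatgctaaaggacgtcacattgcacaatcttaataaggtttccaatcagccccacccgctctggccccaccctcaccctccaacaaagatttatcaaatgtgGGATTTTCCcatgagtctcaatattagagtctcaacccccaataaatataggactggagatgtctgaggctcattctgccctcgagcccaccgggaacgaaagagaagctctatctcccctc
IL11: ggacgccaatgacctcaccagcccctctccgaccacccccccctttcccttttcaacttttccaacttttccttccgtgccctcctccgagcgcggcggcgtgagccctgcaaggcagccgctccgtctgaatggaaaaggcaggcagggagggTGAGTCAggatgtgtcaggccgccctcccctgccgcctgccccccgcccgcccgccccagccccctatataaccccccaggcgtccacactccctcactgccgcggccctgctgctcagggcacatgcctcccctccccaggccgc
The capitals of IL6 are a match to GGNNTTTCC, a form of the kappaB element bound by NF-kB, at -72 to -64 from the start. The capitals of IL11 are a match to TGANTCA, the AP-1 element, at -96 to -90, and this motif was also found in the windows of IL6R and OSMR. The motifs searched on both strands were GGNNTTTCC, TGANTCA, TTCNNNGAA for STAT, TGACGTCA for CRE, GCGNGGGCG for EGR factors and TGATGNAA for composite ATF4 and C/EBP elements. GGNNTTTCC was present in 6.26% and TGANTCA in 7.71% of all 35116 promoters of this length. Of the 8 members with a promoter sequence, TTCNNNGAA was found in windows of LIFR alone, where it overlapped no other match, and 7.66% of all promoters hold it. GCGNGGGCG was likewise found for LIFR alone, with 3 matches in a further window of that gene, at -141 to -133, -117 to -109 and -16 to -8. TGACGTCA and TGATGNAA were found in no searched window of a member. Of all promoters 1.85% hold TGACGTCA, 9.43% GCGNGGGCG and 3.62% TGATGNAA. In the windows of IL6ST, STAT3 and SOCS3 none of the 6 motifs was found. A match is a description of letters, and binding was not measured.

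**Figure D1:**
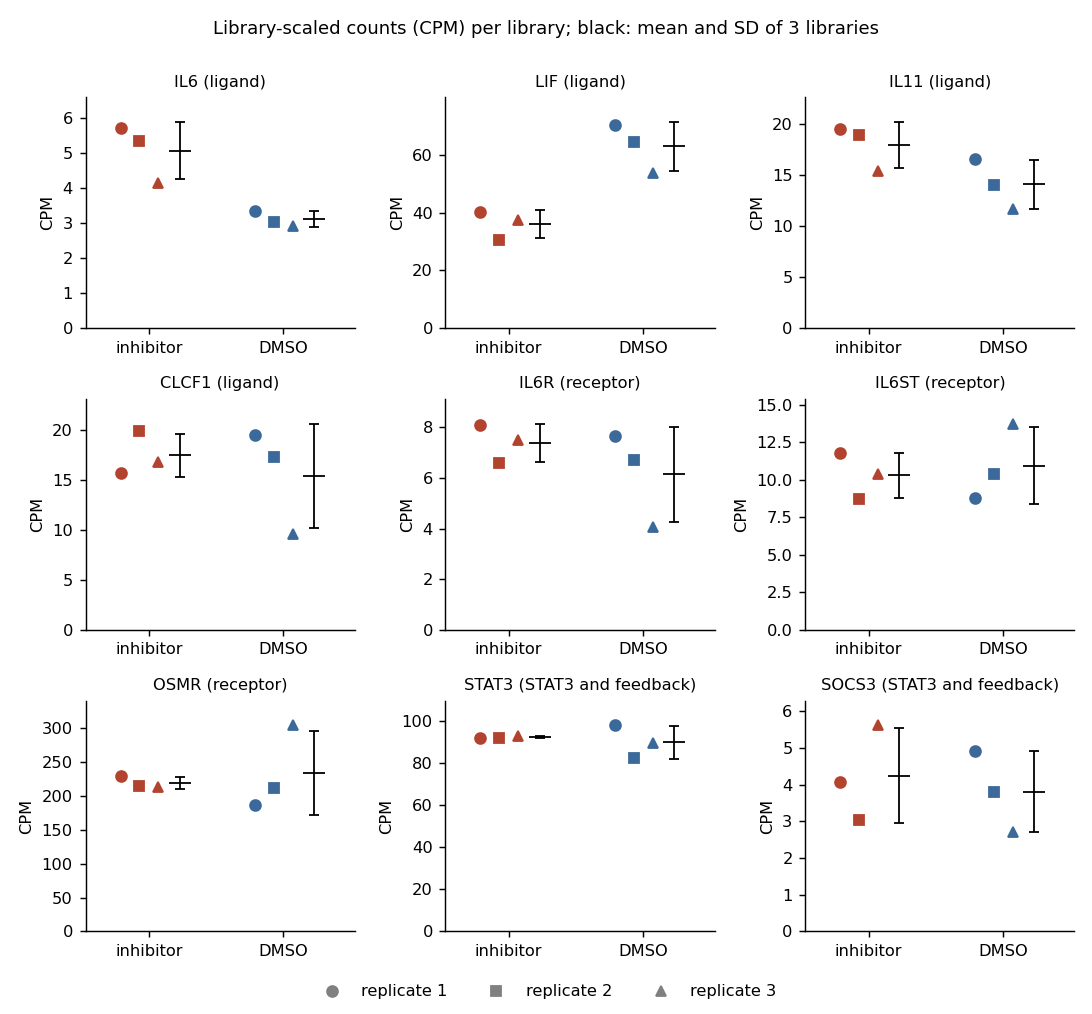
Library-scaled counts (CPM, each y axis starting at 0) of the 9 members with counts, with inhibitor libraries in red and DMSO libraries in blue, a symbol for each replicate, and the mean with SD of 3 libraries in black. LIF was lower in every inhibitor library (30.7 to 40.4 CPM) than in every DMSO library (53.9 to 70.5 CPM), IL6 was higher without overlap, and the other panels overlap.

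The counts of the other ligands relative to LIF can be read without any scaling, as a ratio of raw counts within a library. The ratio of IL6 to LIF counts was 0.142, 0.174 and 0.111 in inhibitor 1 to 3, against 0.0477, 0.0471 and 0.0543 in DMSO 1 to 3. Each inhibitor ratio was above each DMSO ratio, and the mean log2 ratio was 1.5 higher with the inhibitor, at -2.83 ± 0.324 against -4.33 ± 0.113 with DMSO (SD, n = 3 each). The ratio of IL11 to LIF counts was 0.484, 0.619 and 0.412 with the inhibitor and 0.235, 0.217 and 0.217 with DMSO, again without overlap, a difference of 1.16 on the log2 scale. For this ratio DMSO 3 lay at the level of DMSO 2. The ratio of CLCF1 to LIF counts was 0.389, 0.648 and 0.451 with the inhibitor and 0.276, 0.267 and 0.177 with DMSO, a log2 difference of 1.04. In each of the 3 ratios a two-sided exact permutation test over the 20 splits gave p = 0.1, the smallest that 3 libraries against 3 allow, and p = 0.1 adjusted over the 3 ratios. All 3 ratios share LIF as the denominator, so they are not independent. LIF is also the member called lower in these same data, so higher ratios in part restate its fall. By edgeR the log2 fold change was -0.80 for LIF, against 0.71 for IL6, 0.34 for IL11 and 0.16 for CLCF1, none of these 3 called. The ratios are thus a description and no separate support. Since the amplicons differ in yield, the size of a ratio does not say how many transcripts of each kind were present.

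**Figure D2:**
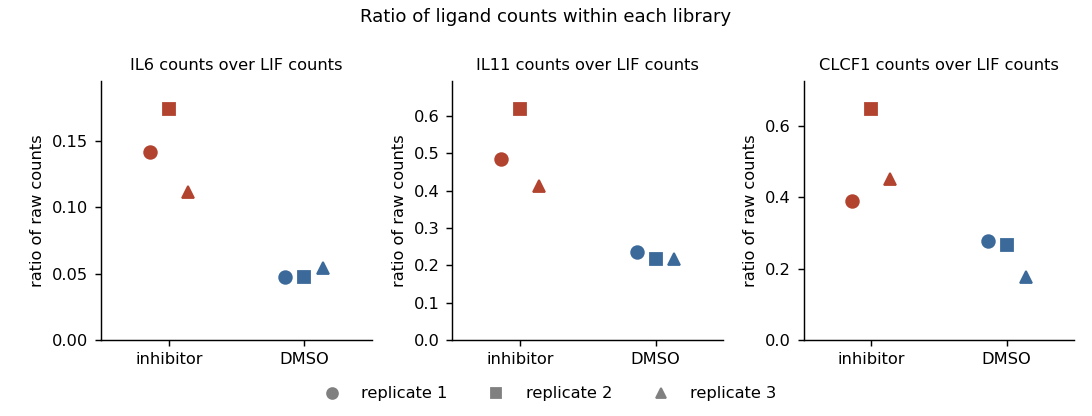
Ratio of raw counts of IL6, IL11 and CLCF1 to those of LIF within each library (y axes starting at 0), inhibitor libraries in red and DMSO libraries in blue, a symbol for each replicate. In each panel the 3 inhibitor ratios lie above the 3 DMSO ratios, for IL6 at 0.111 to 0.174 against 0.0471 to 0.0543.

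None of the 3 receptor genes with counts passed the test, and each varied more among the DMSO than among the inhibitor libraries. IL6R, the IL-6 binding chain, had 8.09, 6.60 and 7.49 CPM in inhibitor 1 to 3 and 7.67, 6.70 and 4.05 CPM in DMSO 1 to 3, with DMSO 3 the lowest library. Its log2 fold change was 0.24 (SE 0.22, 95% interval -0.23 to 0.72, edgeR adjusted p = 0.599) and 0.03 without DMSO 3. IL6ST, which encodes gp130, had 11.8, 8.74 and 10.4 CPM with the inhibitor and 8.76, 10.4 and 13.7 CPM with DMSO. Here DMSO 3 was the highest library, the groups overlapped, and the log2 fold change was -0.07 (SE 0.194, 95% interval -0.49 to 0.34, adjusted p = 0.882). Without DMSO 3 it was 0.10.

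OSMR, the oncostatin M receptor chain, was read with 2049 to 2814 counts a library. Its level was 229.9, 214.3 and 213.1 CPM in inhibitor 1 to 3 and 187.2, 211.3 and 304.1 CPM in DMSO 1 to 3. The inhibitor libraries differed from each other by 4.26%, and the DMSO libraries by 26.4% (SD over mean), both above the counting error of 2.03% and 1.95%, with DMSO 3 far above the rest. The log2 fold change was -0.09 (SE 0.158, 95% interval -0.43 to 0.25, edgeR adjusted p = 0.798) and 0.12 without DMSO 3, so its sign rested on that library. LIFR, the LIF binding chain, had 0 counts in every library. That allows up to 0.245, 0.267 and 0.312 CPM in inhibitor 1 to 3 and 0.235, 0.228 and 0.338 CPM in DMSO 1 to 3, taking 3 counts as the limit, for counting error alone. LIFR RNA was thus not detectable with this amplicon at this depth.

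STAT3, the factor that carries the signal to the nucleus, was nearly level across the inhibitor libraries. It had 91.97, 91.72 and 92.67 CPM in inhibitor 1 to 3, from 1126, 1029 and 891 counts, and 97.8, 82.2 and 89.4 CPM in DMSO 1 to 3. The inhibitor values lay inside the DMSO range. Their spread of 0.534% was below the 3.14% that counting error alone would give, so this closeness is not read as a property of STAT3. The DMSO libraries spread by 8.68%, against 3.10% from counting error. The mean was 92.1 ± 0.492 CPM with the inhibitor and 89.8 ± 7.79 CPM with DMSO (SD, n = 3 each), a log2 fold change of 0.04 with a 95% interval of -0.22 to 0.29 (SE 0.12, edgeR adjusted p = 0.904). SOCS3 had 4.08, 3.03 and 5.62 CPM with the inhibitor, from 50, 34 and 54 counts, and 4.93, 3.81 and 2.70 CPM with DMSO, from 63, 50 and 24 counts. The groups overlapped, and the log2 fold change was 0.12 (SE 0.271, 95% interval -0.47 to 0.70, adjusted p = 0.862). The SOCS3 interval thus reaches from a lower to a higher level, while that of STAT3 is narrower. SOCS3 varied by 30.6% among the inhibitor and 29.2% among the DMSO libraries, where counting error alone would give 14.7% and 14.8%. Without DMSO 3 its log2 fold change was -0.07.

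**Figure D3:**
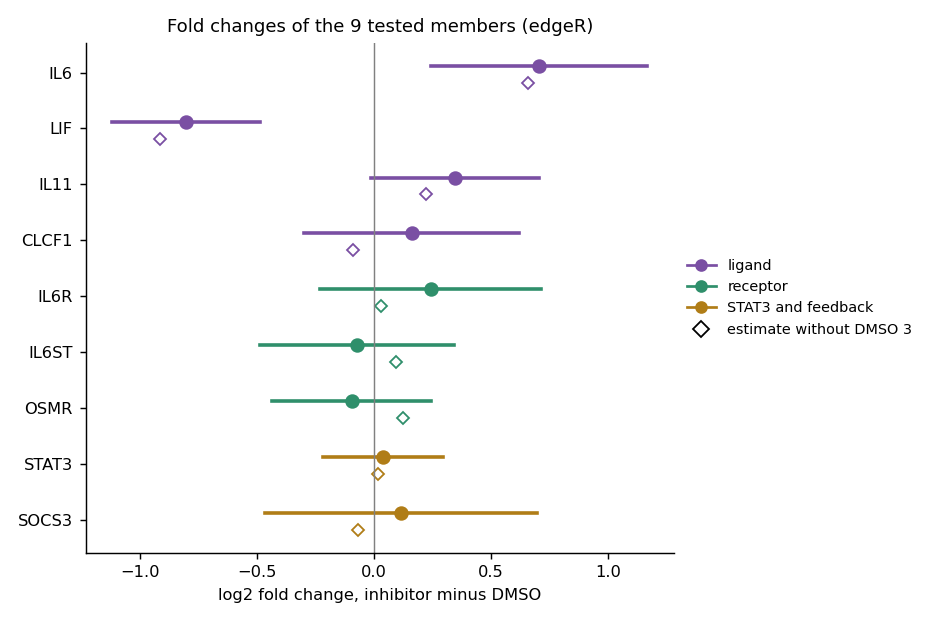
Log2 fold changes of the 9 tested members, inhibitor minus DMSO (edgeR, all 6 libraries), as filled points with 95% intervals, colored by role, and the same estimates without DMSO 3 as open diamonds. The LIF interval (-1.12 to -0.49) and the IL6 interval (0.25 to 1.17) lie on either side of 0, while the other intervals include 0.

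The members differed in DMSO 3 in part along with their GC content, with IL6 as an exception among those of low GC. Among the members of 58.6% to 68.1% GC the values lay below 0 but did not follow the order of GC content. On the log2 CPM scale DMSO 3 lay 0.61 above the mean of DMSO 1 and DMSO 2 for OSMR and 0.52 above it for IL6ST, whose annotated transcripts hold 45.0% and 39.1% GC. It lay at 0.00 for STAT3 (52.0% GC), at -0.12 for IL6 (45.3%) and at -0.32 for LIF (58.8%). It lay at -0.38 for IL11 (62.4%), -0.65 for SOCS3 (68.1%), -0.80 for IL6R (58.6%) and -0.93 for CLCF1 (59.5%). With the GC trend of each library removed, an alternative added after the data had been seen, LIF was at -0.76 (SE 0.125, edgeR adjusted p = 0.00233), IL6 at 0.67 (SE 0.214, adjusted p = 0.079) and IL11 at 0.42 (SE 0.146, adjusted p = 0.0996). Again LIF was the single member called.

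**Figure D4:**
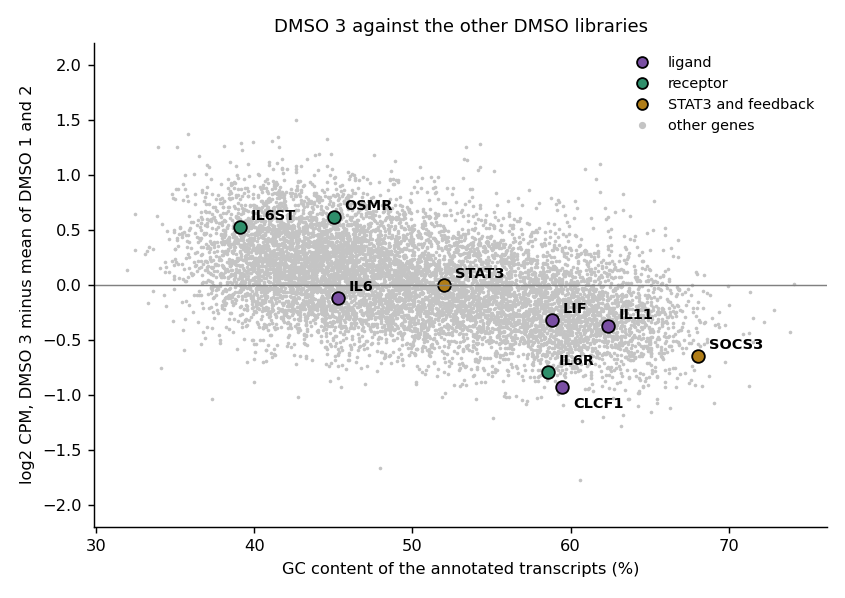
Log2 CPM of DMSO 3 minus the mean of DMSO 1 and DMSO 2 (y axis) against the GC content of the annotated transcripts (x axis, percent) for 9189 genes in grey and the 9 members in color. OSMR and IL6ST lie at 0.61 and 0.52 above 0, and CLCF1, IL6R and SOCS3 at -0.93, -0.80 and -0.65.

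The genes whose course over the 6 libraries was most like that of LIF were sought among 9245 genes with a mean count of at least 50, by the root mean square difference of centred log2 CPM. They were SLC7A1, which encodes a cationic amino acid transporter, at 0.0988, PLK3, a polo-like kinase gene, at 0.100, and FAM84B at 0.106, against a median of 0.468 over the candidates. SLC7A1 averaged 283.8 ± 21.6 CPM with the inhibitor and 490.3 ± 102 CPM with DMSO, with a log2 fold change of -0.79. PLK3 averaged 12.2 ± 0.793 CPM with the inhibitor and 21.5 ± 1.48 CPM with DMSO, or -0.83 on the log2 scale. FAM84B averaged 4.36 ± 0.325 CPM with the inhibitor and 8.06 ± 1.6 CPM with DMSO, or -0.89 on the log2 scale (SD, n = 3 each). They were picked for this likeness, which is given as a description.

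Other ligands and receptor chains of the family were low or did not pass. Of 9 such genes found in the files, 4 were tested and none was called by edgeR, with 0 at an unadjusted p under 0.05, and DESeq2 and limma-voom called none either. Their median log2 fold change was -0.11. IL11RA, the IL-11 binding chain, had 34, 21 and 33 counts in inhibitor 1 to 3 and 31, 34 and 41 in DMSO 1 to 3, or -0.22 as a log2 ratio (SE 0.308, with an adjusted p of 0.753 by edgeR). CNTFR, the binding chain of the CNTF receptor, had 1 count summed over inhibitor 1 to 3 and 0 over DMSO 1 to 3, and OSM, the oncostatin M gene, likewise 1 and 0. CTF1, SOCS1 and SOCS6 are not analysed here.

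Among the JAK kinases and other STAT factors analysed here, 7 genes were tested; edgeR, DESeq2 and limma-voom without quality weights each called none of them, and 1 had an unadjusted edgeR p under 0.05. Their median log2 fold change was 0.14. JAK1, JAK2 and TYK2, the kinases that sit on gp130, had log2 fold changes of -0.02 (SE 0.171), 0.34 (SE 0.209) and 0.14 (SE 0.157), with edgeR adjusted p = 0.971, 0.401 and 0.686 in that order. Of 10 tested negative regulators, which are PIAS proteins, phosphatases and SOCS relatives, none passed by edgeR, DESeq2 or limma-voom without quality weights, and 0 had an unadjusted edgeR p under 0.05 (median 0.02). PIAS1 and PIAS2, named after their values were seen, were called higher without DMSO 3, with log2 fold changes of 0.43 and 0.64. These 2 of 10 genes stand against 21.9% of all genes called in that fit, counted in either direction.

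Of 18 tested genes described elsewhere as induced by STAT3, 5 fell and none rose in the edgeR test, in which 1.92% of all tested genes were called lower. The list was chosen with earlier results of these data known, so its counts, here and below, are a description and no test of the list. The median of the list was -0.14, against -0.00438 over all tested genes. MYC, a growth-promoting transcription factor gene, had 44.9, 45.7 and 42.2 CPM with the inhibitor and 110.1, 104.3 and 84.5 CPM with DMSO, or -1.17 as a log2 ratio (SE 0.133, with an adjusted p of 0.000224 by edgeR). CEBPB, a transcription factor gene of the acute phase response, had 4.74, 4.63 and 3.95 CPM with the inhibitor and 10.5, 8.45 and 7.66 CPM with DMSO, or -1.0 on the log2 scale (SE 0.193, adjusted p = 0.0102). BCL6, a transcriptional repressor gene, had 20.5, 13.7 and 13.6 CPM with the inhibitor and 30.1, 29 and 30.5 CPM with DMSO, or -0.90 on the log2 scale (SE 0.167, adjusted p = 0.00796). The other 2 fallers, named beyond the rule, were the kinase gene PIM1 at a log2 fold change of -0.72 (SE 0.138) and the angiogenic factor gene VEGFA at -0.51 (SE 0.114). The groups did not overlap for 11 of the 18 genes, in both directions, where 25.5% of all tested genes did not. Among these, BCL3, BIRC5, CCND1 and ICAM1, named after their values were seen, were higher with the inhibitor and the others lower. Of all tested genes 13.7% were higher without overlap and 11.8% lower. SOCS3 is described as a STAT3 target as well and was at 0.12. BCL3, a further such gene named after its values were seen, was at 0.61 (SE 0.22, adjusted p = 0.137). The list member with the highest log2 fold change was ICAM1, the gene of an adhesion molecule, with 16, 21 and 12 counts in inhibitor 1 to 3 and 11, 3 and 2 in DMSO 1 to 3. Its CPM values did not overlap, and its log2 ratio was 1.67 (SE 0.48, adjusted p = 0.0703 by edgeR). ICAM1, also named after its values were seen, was called higher in 8 of the 17 alternative fits, among them limma-voom (adjusted p = 0.0403) and edgeR without a low-count filter (adjusted p = 0.0164; 5.32% of all genes called), while DESeq2 did not call it. Each of these genes is known to respond to other factors too, and the part of STAT3 in their levels was not tested. The number of fallers was 2, 1 and 2 without inhibitor 1, 2 and 3, fits that called 1.1%, 0.87% and 1.32% of all genes in either direction. Without DMSO 3 it was 7, with ICAM1 and BIRC5 higher, in a fit that called 21.9% of all genes in either direction. MYC was called in each of the 17 alternative fits.

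Of 15 tested transcription factor genes of the NF-kB, C/EBP, AP-1 and CREB groups, which are known to act on ligand genes of this family, CEBPB was the single one to fall and none rose (median -0.12). In that edgeR fit 3.87% of all tested genes were called, 1.92% lower. CEBPB is also in the STAT3 list above, so this is the same call. It was lost without any 1 of the inhibitor libraries, at edgeR adjusted p = 0.0559, 0.0713 and 0.0714. Without inhibitor 1, 2 and 3 the fits called 1.1%, 0.87% and 1.32% of all genes. Without DMSO 3, FOSB, NFKB2 and REL were called higher and CEBPB, FOSL1, FOSL2, JUND and RELA lower, named here after their values were seen, in the fit that called 21.9% of all genes. FOSB was also called higher by edgeR without a low-count filter (adjusted p = 0.00903). Of 5 tested genes of receptor shedding, which encode the metalloproteases ADAM10 and ADAM17 and their partners, none passed by edgeR with its low-count filter or by limma-voom without quality weights, and 3 had an unadjusted edgeR p under 0.05 (median -0.29). RHBDF1 was called lower by DESeq2 (adjusted p = 0.0489) and by edgeR without the filter (adjusted p = 0.0394). ADAM10, RHBDF1 and TIMP3, named after their values were seen, were called lower with quality weights and without DMSO 3. Those fits called 23.2% and 21.9% of all genes, counted in either direction. Without DMSO 3 the log2 fold changes of ADAM10, RHBDF1 and TIMP3 were -0.41, -0.40 and -0.32.

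**Figure D5:**
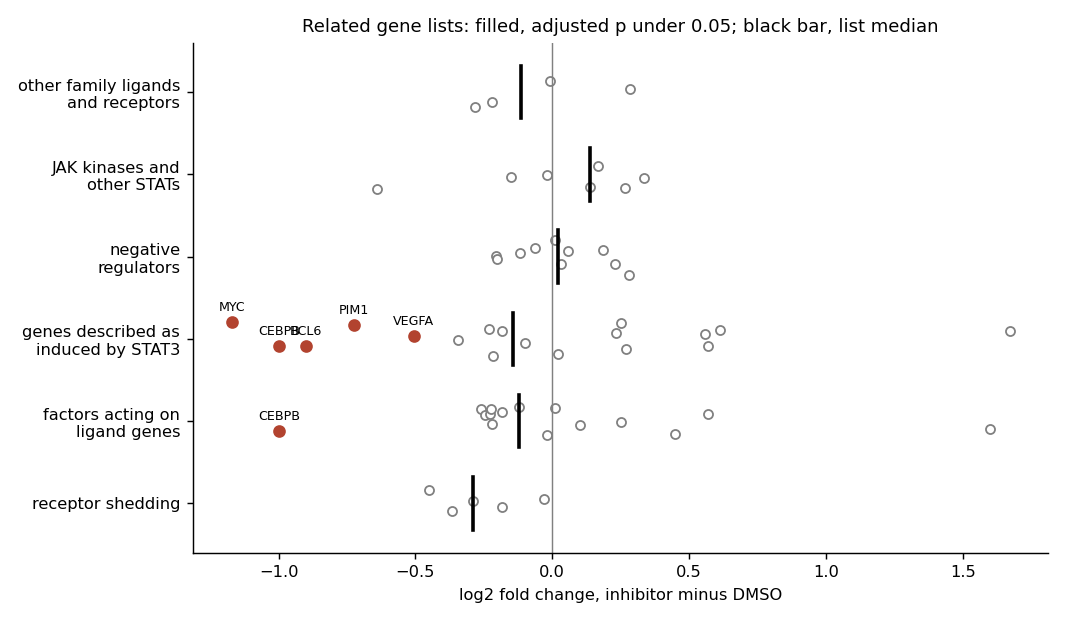
Log2 fold changes, inhibitor minus DMSO (x axis), of the tested genes in 6 related lists, with genes at an edgeR adjusted p under 0.05 filled and named and the median of each list as a black bar. Filled points are MYC, CEBPB, BCL6, PIM1 and VEGFA in the STAT3 list and CEBPB in the list of factors acting on ligand genes, and the medians run from -0.29 to 0.14.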

How the data were processed

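Gene expression was measured in 3 inhibitor and 3 DMSO libraries of HT-1080 cells with an amplicon panel and Ion Torrent sequencing, per the labels' protocols. The authors deposited raw counts for each gene symbol, with no normalization, as the whole-number values show. HTSeq, DESeq2 1.20.0 and hg19 appear in the submitters' processing notes, with no step named for them; no aligner is given in the sources used here. No molecular identifiers are named, so limits and spreads from counts cover counting error only.

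Genes were kept by filterByExpr (minimum count 10, minimum total 15), which left 11216 genes, and scaled by TMM in edgeR 4.0.16 under R 4.3.3. The quasi-likelihood test used an intercept and the group, with adjustment over all 11216 genes and a threshold of 0.05. The prior count of log2 CPM was 2. The SE is the absolute log2 fold change divided by the square root of F. GC content is the mean over GENCODE 29 coding transcripts, matched by symbol for 98.9% of tested genes. Alternatives used DESeq2 1.42.0, limma 3.58.1, other scaling and filters, a replicate block and each library left out; 3 were added after the data had been seen. The fits were tested on simulated counts. The members and lists were chosen with earlier results of these data known. Named were all members, partner genes, up to 3 called genes per list and the 3 genes most like a called member; others are said to be named after their values were seen. Some genes of the lists are not reported here and are left out of the list counts. Promoters are from RefSeq (GRCh38.p14) and matched 8 of 10 members by symbol.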

Additional observations from a re-analysis of the deposited data

How the results depend on the processing

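The counts of called members moved little: 1 lower under all fits with the full set of 6 libraries, and 0 higher except for 1 (IL6) with library quality weights. Leaving out a library gave 0 to 1 members higher and 0 to 1 lower, with LIF lost without inhibitor 2 or 3 and IL6 gained without DMSO 3. The count of all called genes, 434, was 831 without a low-count filter, 2606 with quality weights, 711 with GC trends removed, 769 with GC trends removed and the replicate block, 2076 with the block and without DMSO 3, and 99 to 2496 without single libraries; the cause of these moves was not tested. By library totals alone 336 genes were higher and 163 lower, against 219 and 215 with TMM. Of 319 values of single genes under the alternatives, 302 kept their side of the threshold, 14 lost a call and 3 gained one. No value changed sign where the gene was called in the main fit or in the alternative. Uncalled genes did change sign. JAK1 kept its sign in 10 of 17 alternative fits, IL6ST in 13 of 17, OSMR in 14 of 17 and SOCS3 in 13 of 16. IL6 could not be included with a mean count of at least 50. Same-numbered libraries deviated with correlations of -0.0796, -0.0448 and -0.12 over 9189 genes, so the numbers were not taken as pairs. With the replicate block 327 genes were called, LIF stayed at -0.81 (edgeR adjusted p = 0.007), and VEGFA was lost (adjusted p = 0.0505). IL6, IL6R and SOCS3 had under 100 counts in each library, and the part of depth in their missing calls was not tested.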
